A study of Mus musculus with 58 samples.

Results

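PCGF3 and PCGF5 were degraded in mouse embryonic stem cells (mESCs) that then expressed Xist for 1 day, and chromatin-associated RNA was sequenced (ChrRNA-seq). The comparison rests on 4 of the 58 libraries of the series, taken by their titles. These are 2 treated with dTAG-13 and 2 untreated, in pairs of the same replicate number that the study describes as cultured in parallel. All 4 came from 1 female line that is a hybrid of the 129S strain (Dom) and Mus musculus castaneus (Cast). In this line the Xist gene of the Dom X lies behind a doxycycline-inducible TetOn promoter, and both copies of Pcgf3 and of Pcgf5 encode proteins with an N-terminal FKBP12(F36V) degron. dTAG-13 binds this tag and directs the fusion protein to the proteasome. It was given at 100 uM, per the labels, starting 12 h ahead of doxycycline. Doxycycline was used at 1 ug/mL in both treated and untreated cultures. The 4 libraries of the same line without doxycycline (day 0), 2 with dTAG-13 and 2 without, gave the starting point. Replicates are cultures of a single engineered line, so p-values do not measure the spread between lines. In the test on allele counts they rest on fragment counts and on a spread estimated in part across genes. They are not a direct measure of how far a gene's own cultures differed. The cells had been grown on inactivated fibroblast feeders, which were removed by pre-plating.

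Xist is the long non-coding RNA that coats 1 X chromosome of female mammals and silences its genes in cis. It acts through SPEN, whose SPOC domain binds corepressors that remove histone acetylation, and through the Polycomb system. Polycomb recruitment begins with variant PRC1 complexes built around PCGF3 or PCGF5, which ubiquitinate histone H2A at lysine 119, a mark that PRC2 can read before it methylates histone H3 at lysine 27. The comparison asked how much of the silencing seen after 1 day of Xist in undifferentiated cells was lost when PCGF3 and PCGF5 were absent from the start.

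The measure of silencing was the allelic ratio of a gene, the fragments of the Dom X divided by those of both X chromosomes. At 0.5 both X chromosomes give as much RNA, and at 0 the Dom X gives none. It was available for 246 genes, all between Xist and the centromeric end of the X, from base 6047507 to 103396118 of mm10. The 4 libraries had 12.9 M to 20.7 M (mega) fragments, of which 46.4% to 48.1% carried allele information. An X gene had a median of 168.5 to 208.5 allelic fragments per library. In bulk libraries a smaller share of cells with a silenced X and weaker silencing in each cell cannot be told apart.

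The inducible gene and the engineered genes were examined first. Xist RNA stood at 3149 and 2741 CPM (counts per mega of counts of the library) in the untreated day 1 libraries and at 3836 and 2735 CPM with dTAG-13, against 47.3 to 135 CPM on day 0. Values of both treatments overlapped on day 1, with a log2 difference of 0.16 (SE 0.14, adjusted p = 1.0, quasi-likelihood test of edgeR). Without dTAG-13 replicate 1 it was 0.02. RNA of Pcgf3, Pcgf5 and Spen did not pass the test either, with log2 differences of 0.02 (SE 0.09), 0.18 (SE 0.12) and 0.15 (SE 0.16). On day 0 Xist stood at 75.8 and 47.3 CPM untreated and at 135 and 107 CPM with dTAG-13 (unadjusted p = 0.000146, adjusted p = 0.438, edgeR). The degron acts on protein, so these values check neither tag nor degradation. Naive pluripotency markers of mESCs were present in each library, with Esrrb at 474 to 593 CPM and Nanog at 50.8 to 59.5 CPM. Sox2, a defining pluripotency factor, was listed at 0 in all 4 libraries, and the reason was not tested.

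dTAG-13 replicate 1 stood apart from the other 3 libraries in the allele of its Xist RNA. There 3925 of 19067 allelic Xist fragments came from the Cast X, a share of 20.6% (95% Wilson interval 20.0% to 21.2%, counting error only). The share was 0.117% and 0.0422% in the untreated libraries and 0.0780% in dTAG-13 replicate 2, and it did not pass 0.804% in any of the other 44 doxycycline-treated libraries of the series. On day 0, dTAG-13 replicate 1 likewise had 314 of 836 Xist fragments from Cast, or 37.6% (34.3% to 40.9%), against 0.216% in replicate 2. Untreated day 0 replicate 1 had 23 of 450, or 5.11% (3.43% to 7.55%), and untreated day 0 replicate 2 had 0 of 347, for which the interval reaches 1.09%. On day 1, dTAG-13 replicate 1 carried more RNA of some fibroblast markers. Col3a1, a fibrillar collagen, had 6.34 CPM in it, 0.520 CPM in untreated replicate 1 and 0 in both libraries of replicate 2. Of 16 fibroblast markers, 12 were expressed enough to test and 4 had an unadjusted p under 0.05 (edgeR), all higher with dTAG-13. Over all 15366 genes tested, 447 (2.91%) were under 0.05, 285 of them higher. The median log2 change of the list with dTAG-13 was 0.61 on day 1 and 1.14 on day 0. The summed level of the list was 640 and 739 CPM untreated and 678 and 671 CPM with dTAG-13, and Lum was at 0 in all 4 libraries. The part of these differences in the allelic results was not tested, but the allelic counts tested with it are given with and without this library, a choice made after the data were seen.

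**Figure D1:**
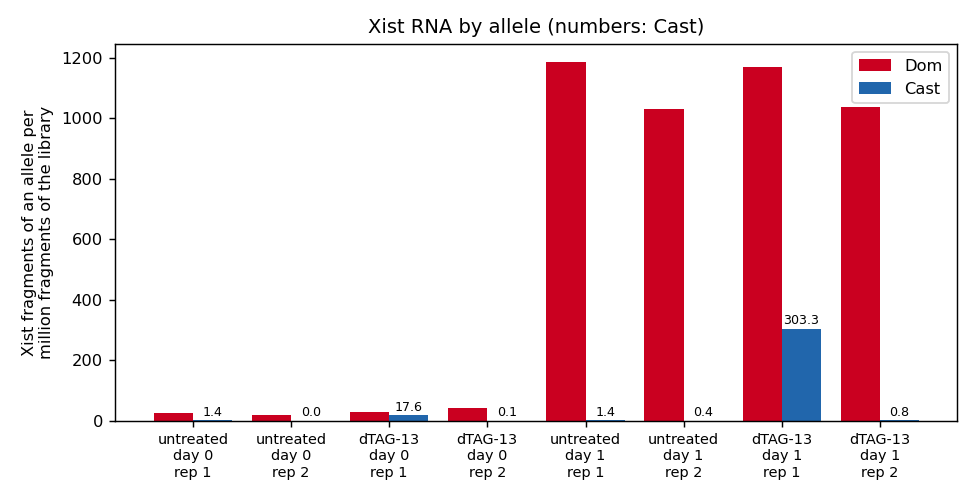
Bars show Xist fragments assigned to the Dom X (red) and the Cast X (blue) per mega of fragments of each of the 8 mESC libraries, with the Cast value printed. On day 1 the Dom level is alike in all 4 libraries, and only dTAG-13 replicate 1 has a visible Cast bar, at 303.3 against 0.4 to 1.4 in the others.

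Silencing of the Dom X was weaker with dTAG-13 in both pairs. The median allelic ratio over the 246 genes was 0.342 and 0.324 in the untreated libraries and 0.417 and 0.399 in the dTAG-13 libraries. All 4 lay below the day 0 libraries, which were between 0.509 and 0.512 whether or not dTAG-13 had been added. The treated mean of 0.408 ± 0.0120 (SD, n = 2) exceeded the untreated mean of 0.333 ± 0.0125 (SD, n = 2) by 0.0748, and the pairs gave 0.0745 and 0.0751. The groups did not overlap, but 2 libraries against 2 cannot give an exact two-sided permutation p under 0.333, and that was the value found. With PCGF3 and PCGF5 degraded, the fall of the median from day 0 was 58.7% of the fall in untreated cells. Without dTAG-13 replicate 1 the difference was 0.0663. Median ratios of autosomal genes were between 0.520 and 0.524 in all 8 mESC libraries.

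**Figure D2:**
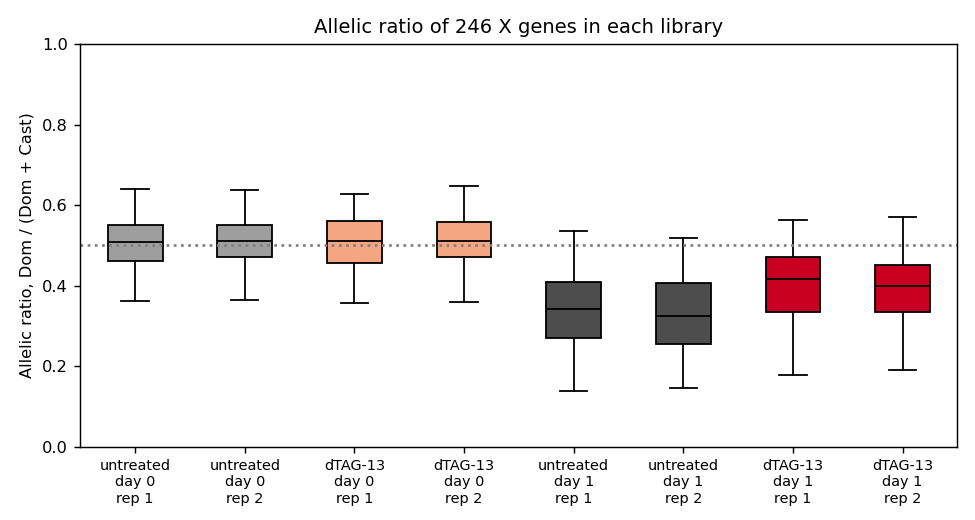
Boxes show the quartiles and median of the allelic ratio over 246 X genes in each mESC library, whiskers reach the 5th and 95th percentiles, and the dotted line marks 0.5. Day 0 boxes centre at 0.509 to 0.512, untreated day 1 boxes at 0.342 and 0.324 and dTAG-13 day 1 boxes at 0.417 and 0.399.

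The shift ran through the whole distribution of genes. Untreated libraries had 24 and 33 genes with a ratio under 0.2, and dTAG-13 libraries had 16 in each. At the other end, 17 genes in each untreated library and 34 and 32 in the dTAG-13 libraries had a ratio over 0.5. Gene by gene, the ratio was higher with dTAG-13 in 211 genes of pair 1 and 204 of pair 2. It was higher in both pairs in 176 genes and lower in both in 6. For 157 of 246 genes, or 63.8%, both dTAG-13 libraries lay above both untreated ones, against 14.7% of 11798 autosomal genes with a ratio. The reverse order held for 3 X genes, Slc25a5, Cetn2 and Emd (named after their values were seen), none of which passed the test.

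In the test on allele counts, the ratio rose with dTAG-13 in 84 of 246 genes (34.1%) and fell in 0, at a threshold of 0.05 on the adjusted p from edgeR. Unadjusted, 103 genes were under 0.05. Before induction 0 genes differed with dTAG-13, 16 having an unadjusted p under 0.05. The rise among the 84 genes ran from 0.0275 to 0.197 with a median of 0.0916, and the median change over all 246 genes was 0.0619. The count was 44 without dTAG-13 replicate 1, 45 without pair 1 and 39 without pair 2, and 43, 44 and 38 of these were among the 84. All 3 fits shared 25 of the 84. limma on the ratios called 0 genes (95 with an unadjusted p under 0.05) and DESeq2 on the allele counts called 49. Depth bore on which genes passed. Of genes with at least 200 allelic fragments in each library 62 of 104 rose, against 2 of 66 with under 50, although the median change of the shallow genes was 0.0812 and that of the deep genes 0.0603.

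**Figure D3:**
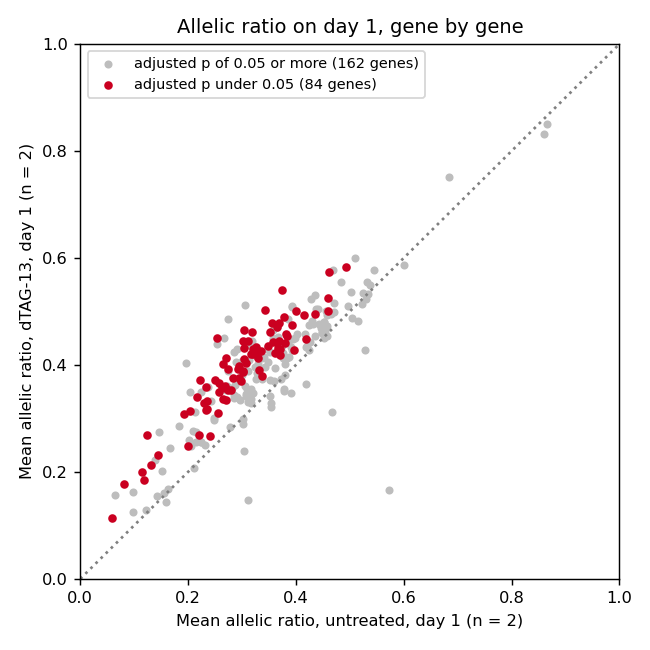
Each point is 1 of 246 X genes, with its mean allelic ratio over 2 untreated libraries on the horizontal axis and over 2 dTAG-13 libraries on the vertical axis, both on day 1. The 84 genes past the threshold (red) all lie above the dotted line of equal ratios.

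The genes with the largest rise, among those past the threshold with at least 100 allelic fragments in each library and groups that did not overlap, served different functions. Apoo, which encodes a subunit of the MICOS complex of mitochondrial cristae, had ratios of 0.360 and 0.324 untreated and 0.547 and 0.459 with dTAG-13. In the treated libraries it lay close to its day 0 ratios of 0.558 and 0.505, and its difference from day 0 did not pass the test (adjusted p = 0.58, edgeR). Its log2 odds of a Dom fragment rose by 0.95 (SE 0.26, adjusted p = 0.00134, edgeR), but the adjusted p was 0.0562 without dTAG-13 replicate 1. Aff2, a member of the AF4/FMR2 family of transcription elongation factors, showed the same pattern. It had 0.312 and 0.325 untreated and 0.491 and 0.432 with dTAG-13, and its adjusted p was 0.218 without that library. 2610018G03Rik rose from 0.207 and 0.237 to 0.369 and 0.375 and kept its call in each of the 3 fits without a library or pair.

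Other genes of this group moved part of the way. Tex11, a gene for meiotic recombination, was among the most silenced genes at 0.111 and 0.136 in untreated cells, and stood at 0.268 in both treated libraries, which was still below its day 0 ratio of 0.462 and 0.483. Rbmx, which encodes an RNA-binding protein in splicing, went from 0.278 and 0.263 to 0.392 and 0.434. The ERM protein moesin, which ties actin to the membrane and is encoded by Msn, had 0.218 and 0.215 untreated against 0.341 and 0.340 treated. For these 3 genes the treated and untreated libraries were well separated, and the call held without either pair and without dTAG-13 replicate 1. Stag2, a cohesin subunit, rose from 0.243 and 0.306 to 0.386 and 0.397, with an adjusted p of 0.0049 (edgeR) that was 0.136 without dTAG-13 replicate 1. Cd99l2, an adhesion molecule, went from 0.272 and 0.196 to 0.361 and 0.356. The synaptic scaffold gene Dlg3 went from 0.306 and 0.193 to 0.406 and 0.336, and like Cd99l2 it lost its call without pair 2 (adjusted p = 0.244 and 0.212, edgeR). Elf4, an ETS transcription factor, had 0.288 and 0.319 untreated and 0.420 and 0.444 treated, and none of the 3 fits without a library or pair called it.

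Pdzd4 and Idh3g are neighbours on the minus strand, 6.459 kb apart, and did not share a response. Pdzd4, which encodes a PDZ domain protein and lies at chrX:73793357-73824969, had ratios of 0.334 and 0.269 untreated and 0.463 and 0.428 with dTAG-13, a log2 odds difference of 0.92 (SE 0.15, adjusted p = 8.98e-08, edgeR) that was called without either pair. Idh3g, at chrX:73778963-73786897, encodes a subunit of the isocitrate dehydrogenase of the citric acid cycle. It had 0.426 and 0.477 untreated and 0.449 and 0.451 with dTAG-13, all below its day 0 ratios of 0.485 to 0.511, and a log2 odds difference of -0.02 (SE 0.08). The difference between the genes was not itself tested. The 250 bases before each gene's start (RefSeq, GRCm38.p6, 5′ to 3′ on the gene's strand) are given with those of Aff2 and Bcor. They show promoters of 2 genes that rose, Pdzd4 and Aff2, and of 2 with alike ratios in both treatments, Idh3g and Bcor. Capitals mark CG dinucleotides, which number 17 for Pdzd4 (chrX:73824970-73825219, minus strand), 7 for Aff2 (chrX:69360081-69360330, plus strand), 24 for Idh3g (chrX:73786898-73787147, minus strand) and 16 for Bcor (chrX:12160356-12160605, minus strand).
Pdzd4: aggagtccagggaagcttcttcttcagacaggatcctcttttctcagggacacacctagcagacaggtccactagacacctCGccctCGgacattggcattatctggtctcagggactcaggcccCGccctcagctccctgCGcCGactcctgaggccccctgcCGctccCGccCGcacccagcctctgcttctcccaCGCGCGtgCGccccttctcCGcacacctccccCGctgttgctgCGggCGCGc
Aff2: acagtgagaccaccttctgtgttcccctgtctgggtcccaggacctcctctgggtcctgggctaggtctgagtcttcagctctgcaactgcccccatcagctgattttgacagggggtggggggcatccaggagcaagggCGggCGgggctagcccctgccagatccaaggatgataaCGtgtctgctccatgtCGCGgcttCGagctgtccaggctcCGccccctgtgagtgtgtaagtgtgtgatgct
Idh3g: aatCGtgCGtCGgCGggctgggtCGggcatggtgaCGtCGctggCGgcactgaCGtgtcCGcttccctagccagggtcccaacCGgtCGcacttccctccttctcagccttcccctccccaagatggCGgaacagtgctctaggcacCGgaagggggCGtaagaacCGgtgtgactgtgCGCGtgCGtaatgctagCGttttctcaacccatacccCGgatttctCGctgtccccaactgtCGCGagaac
Bcor: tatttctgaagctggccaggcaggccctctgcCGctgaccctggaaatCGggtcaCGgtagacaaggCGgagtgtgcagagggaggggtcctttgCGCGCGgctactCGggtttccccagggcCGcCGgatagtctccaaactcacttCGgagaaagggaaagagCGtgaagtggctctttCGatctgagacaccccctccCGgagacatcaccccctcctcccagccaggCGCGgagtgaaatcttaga
CG content did not set the risen genes apart in these windows. An entry of this table matched 196 of the 246 genes. Risen genes had a median of 12 CG (66 genes) and the others 13 (130 genes), against 6 over 32817 promoters of the genome. At least 10 CG, on either strand alike, were found in 65.2% of risen genes, 66.2% of the others and 37.8% of all promoters.

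A second group had ratios that did not differ beyond their errors with and without PCGF3 and PCGF5. These genes were below day 0 in both treatments and had the smallest change of ratio among genes of at least 100 fragments. Rps4x, which encodes a protein of the small ribosomal subunit, had 0.375 and 0.370 untreated and 0.369 and 0.379 with dTAG-13, against 0.491 to 0.515 on day 0. Its 4 day 1 libraries overlapped, and its log2 odds differed by 0.02 (SE 0.09). Bcor, itself a subunit of another variant PRC1 complex, had 0.350 and 0.352 untreated and 0.358 and 0.324 treated. Tbc1d25, a GTPase-activating protein of autophagy, had 0.343 and 0.376 against 0.375 and 0.364. In these 2 genes the ratio stayed while the level of both alleles was higher with dTAG-13. The log2 change was 0.50 (Dom) and 0.57 (Cast) for Bcor, and 0.54 and 0.47 for Tbc1d25, none past the adjusted test (edgeR). The remaining genes of this group changed by -0.10 to 0.16 on either allele. The nonsense-mediated decay factor gene Upf3b had 0.481 and 0.435 against 0.462 and 0.447. In each the treatments overlapped, and the SE of the log2 odds difference, 0.08 to 0.26 over these 5 genes with Idh3g among them, is the precision behind this. None of the 5 was called in any alternative run for it, but they were chosen by their small change. Bcor, Tbc1d25 and Upf3b had SE of 0.23, 0.21 and 0.26, beside a median log2 odds change of 0.39 over all X genes with a ratio. For these a lack of response is not shown.

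**Figure D4:**
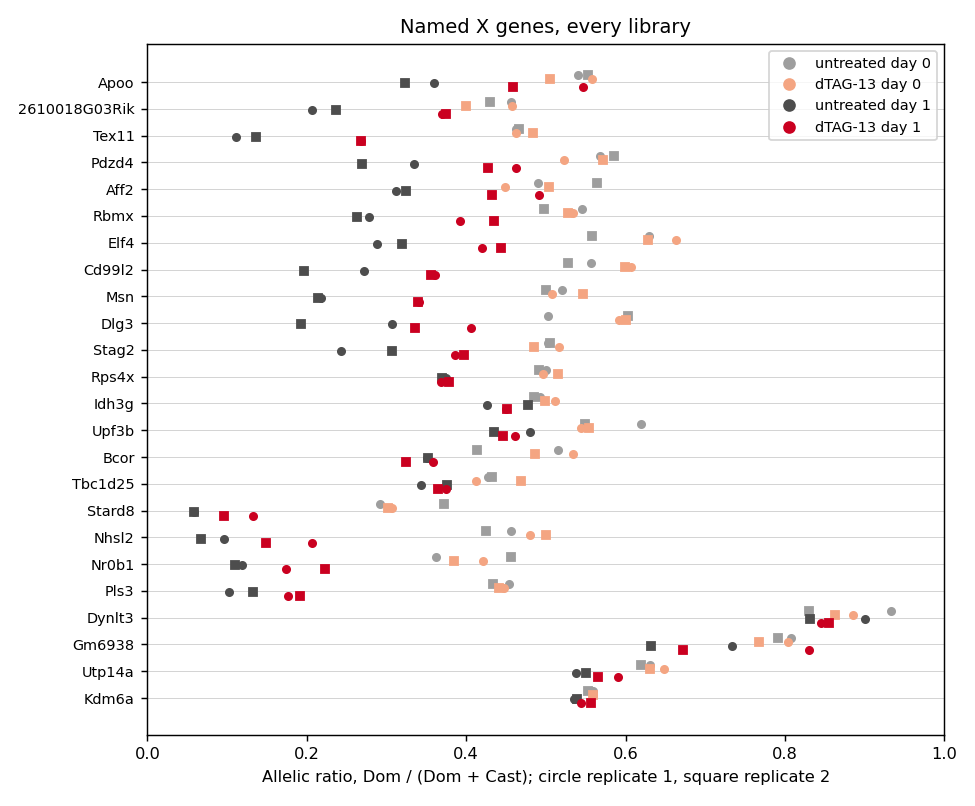
Allelic ratio of the named X genes in each of the 8 mESC libraries, with circles for replicate 1 and squares for replicate 2. From Apoo to Stag2 the dTAG-13 day 1 points (red) lie to the right of the untreated ones (dark grey), and from Rps4x to Tbc1d25 they overlap, left of most day 0 points.

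Genes at both extremes of the untreated range are given as a description, since the untreated ratio that chose them also enters the comparison. The lowest untreated ratios among genes of at least 100 fragments were those of Stard8, Nhsl2, Nr0b1 and Pls3. Stard8, a GTPase-activating protein, had 0.059 in both untreated libraries and 0.132 and 0.096 treated. Nr0b1, the orphan nuclear receptor DAX1 of the naive pluripotency network, had 0.119 and 0.109 untreated and 0.174 and 0.223 treated. Nhsl2 had 0.096 and 0.067 untreated and 0.206 and 0.148 treated, and the actin-bundling gene Pls3 had 0.102 and 0.133 untreated and 0.177 and 0.191 treated. All 4 rose in the test, and all 4 stayed below day 0. In the 3 fits without a library or pair, Stard8 and Pls3 lost the call each time. Nhsl2 lost it without pair 1 and without dTAG-13 replicate 1 (adjusted p = 0.0656 and 0.0581, edgeR), and Nr0b1 without pair 2 (adjusted p = 0.237, edgeR). The highest untreated ratios were those of Dynlt3, Gm6938, Utp14a and Kdm6a. Kdm6a, a histone H3 lysine 27 demethylase that escapes X inactivation in mouse, had 0.535 and 0.539 untreated and 0.543 and 0.556 treated. Utp14a, a nucleolar ribosome assembly factor, had 0.538 and 0.551 against 0.590 and 0.566. None of these 4 passed the test, with adjusted p-values of 0.0756 for Utp14a, 0.133 for Kdm6a, 0.221 for Gm6938 and 0.744 for Dynlt3 (edgeR).

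Each treatment was then compared with its own day 0. In untreated cells 202 genes (82.1%) were below day 0 at an adjusted p under 0.05 (edgeR), and with dTAG-13 155 genes (63%) were. The lists shared 152 genes, 50 were called only in untreated cells and 3 only with dTAG-13. Passing in a single treatment does not show that a gene's silencing differed. The median fall of the ratio was 0.173 untreated and 0.105 with dTAG-13. Among the 84 risen genes it was 0.212 and 0.110, all 84 were below day 0 in untreated cells, and 71 of them were still below day 0 with dTAG-13. These values, and the overlap with the 84 given below, share the day 1 counts that chose the 84 and are a description. Without dTAG-13 replicate 1 the count with dTAG-13 was 104. The test of the treatment effect on day 1 against that on day 0, which takes out any effect of dTAG-13 before Xist, called 55 genes, 54 with a larger rise on day 1 (22%) and 51 of these among the 84. The exception was Cetn2, with as few as 6 allelic fragments in a library. This count was 27 without dTAG-13 replicate 1, 36 without the replicate block, and 0 with limma on the ratios.

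The change of ratio came from the Dom X. Relative to untreated cells, the Dom level of the 246 genes had a median log2 change of 0.49 with dTAG-13, and their Cast level a median of 0.06, while autosomal genes had medians of 0.02 on both alleles. Dom levels were higher in 229 genes and Cast levels in 151. Among the 84 risen genes, Dom was higher in 84 and Cast in 51. The same Dom and Cast counts chose these 84 genes, so this split is a description and adds no support. From day 0 to day 1 the median Dom level fell by 1.06 on the log2 scale in untreated cells and by 0.63 with dTAG-13. Cast changed by -0.02 and -0.01. No single gene passed the adjusted test for either allele by edgeR. At an unadjusted p under 0.05, Dom was higher in 107 of 246 genes (43.5%), against 2.29% of all 12044 X and autosomal genes, and Cast differed in 9 (3.66%), against 2.61%. Msn shows the fragments behind such values. It had 92 and 91 Dom fragments and 330 and 333 Cast fragments untreated, and 153 and 153 Dom with 296 and 297 Cast fragments in the smaller dTAG-13 libraries.

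**Figure D5:**
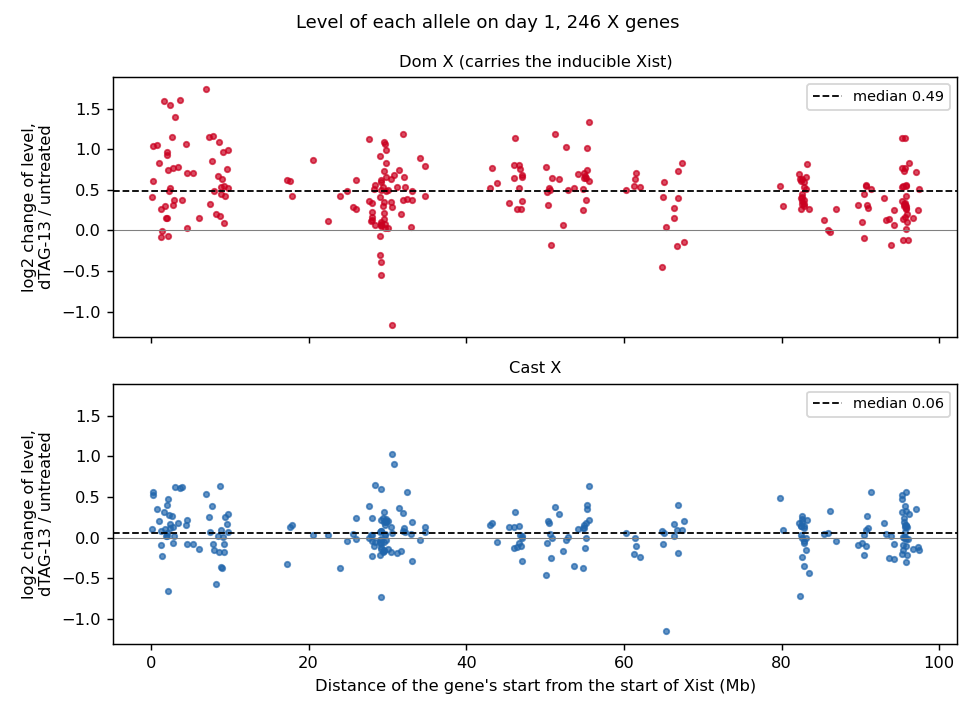
Log2 change of the level of each allele with dTAG-13 on day 1 (vertical axis) for 246 X genes by the distance of their start from Xist (horizontal axis, Mb), with the Dom X above and the Cast X in the lower panel. The dashed medians are 0.49 for Dom and 0.06 for Cast, and the Dom change is above 0 for 229 of the 246 genes.

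Genes were also grouped by properties that the comparison did not use, as a description with no test between groups. By the silencing speed that the study assigns, the median rise of the ratio was 0.0874 for 81 fast genes, 0.0665 for 81 intermediate genes and 0.0388 for 82 slow genes, and 39, 32 and 13 of them rose. Fast genes also fell most in untreated cells, by a median of 0.246 against 0.111 for slow genes, and fell by 0.171 with dTAG-13 against 0.0693. Genes in chromatin rich in H3K27me3 before Xist, by the study's chromatin states, had a median rise of 0.0840 (17 of 38 rose), and genes in active chromatin of 0.0601 (61 of 174). Genes that the study calls SPOC-independent had 0.0763 (59 of 151 rose) and SPOC-dependent genes 0.0444 (25 of 95). That last class was drawn from samples of this series and is not independent evidence. All of these shares stand beside 34.1% over the 246 genes. Deeper genes pass more easily, and the median depth was 116 fragments for fast and 176 for slow genes, as given by the shallowest of the 4 libraries.

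Along the chromosome the rise was present at every distance from Xist. It had a median of 0.0765 for 52 genes within 10 Mb (20 rose), 0.0803 for 7 genes at 10 to 25 Mb (5 rose), 0.0603 for 76 genes at 25 to 50 Mb (26 rose) and 0.0585 for 111 genes farther away (33 rose). Untreated silencing ran in the same order at its ends, with a median fall of 0.207 within 10 Mb and 0.142 beyond 50 Mb. By day 0 level per length, the third of genes with the lowest expression had a median rise of 0.0801 (24 of 82 rose) and the third with the highest 0.0486 (31 of 82). Tex11 and Dlg3, 20.237 kb apart and on opposite strands, both rose.

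X-linked regulators were read as lists. Of 30 chromatin and transcription regulators with a ratio, 13 rose (43.3%, beside 34.1% of all 246 genes) and 0 fell, with a median change of 0.0490 against 0.0619 over all 246 genes. The clearest was Usp9x, a deubiquitinase with high read depth, at 0.388 and 0.379 untreated and 0.460 and 0.449 with dTAG-13 (log2 odds 0.42, SE 0.03, adjusted p = 1.04e-36, edgeR). The deacetylase gene Hdac8 had 0.426 and 0.305 against 0.494 and 0.449, and Med14, a core subunit of Mediator, had 0.374 and 0.388 against 0.475 and 0.441. Jade3, a subunit of an acetyltransferase complex, had 0.358 and 0.397 against 0.467 and 0.511. The paraspeckle gene Nono did not pass, at 0.453 and 0.385 against 0.447 and 0.421. Suv39h1, a histone methyltransferase, was not called below day 0 in either treatment, with 0.559 and 0.510 untreated and 0.486 and 0.580 treated.

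Of 10 regulators of pluripotency and MAPK signalling on the X, 5 rose, beside 34.1% of all 246 genes. They were Klhl13, Fhl1, Nr0b1, Amer1 and Araf, and the median change of the list was 0.0813. Klhl13, an adaptor of a cullin ubiquitin ligase, had a small change with a small SE, from 0.240 and 0.239 to 0.274 and 0.260 (log2 odds 0.21, SE 0.03, adjusted p = 5.44e-08, edgeR). Araf, a RAF kinase, had 0.422 and 0.409 untreated and 0.472 and 0.514 treated and was not below day 0 with dTAG-13 in the test (adjusted p = 0.947, edgeR). Of 6 genes known to escape X inactivation in mouse, Shroom4 and Ddx3x rose, a share close to that 34.1%. Shroom4 had 0.380 and 0.360 untreated and 0.440 and 0.420 treated. Ddx3x, an RNA helicase, had 0.408 and 0.429 against 0.452 and 0.444. The median change of these 6 was 0.0288.

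The same degradation was read against its effect in 2 other settings. In cultures differentiated towards neural precursors (NPC) for 6 days under doxycycline, the median ratio was 0.0741 ± 0.0130 untreated and 0.227 ± 0.00217 with dTAG-13 (SD, n = 2 each), a difference of 0.153 against 0.0748 in mESCs on day 1. On the log odds scale, the effect was smaller in mESCs for 147 of 246 genes (59.8%, edgeR) and larger for 0. Untreated silencing was also deeper on NPC day 6, with a median of 0.0741 against 0.333 in mESCs on day 1. The effect as a share of the fall from day 0 was not compared between the settings. Without dTAG-13 replicate 1 the count was 120. On the ratio scale limma called 6. Idh3g, which did not change on day 1, had a mean of 0.187 untreated and 0.396 with dTAG-13 on NPC day 6, and Bcor had 0.139 and 0.322. Rps4x had 0.0929 and 0.215. All 5 named genes with alike ratios on day 1 differed between the settings in this test. They were chosen by their small day 1 change, which also enters the test, so this is a description. Day and cell state changed together, so they cannot be told apart.

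In the line that also carries the SPEN SPOC mutation, the untreated median on day 1 was 0.479 ± 0.00516 and that with dTAG-13 0.510 ± 0.00261 (SD, n = 2 clones each), a difference of 0.0307. The effect was larger in the line with intact SPEN for 28 of 246 genes (11.4%, edgeR) and smaller for 0, and all 28 were among the 84. Day 1 counts that chose the 84 also enter this test, so the overlap is a description. Set against day 0 of the line with intact SPEN, little silencing was left to lose in the SPOC line. Its treated median of 0.510 stood at the day 0 level of the line with intact SPEN (0.510 untreated, 0.512 with dTAG-13). The SPOC line was not compared with its own day 0 libraries. A smaller effect there does not by itself mean that a smaller part of the silencing was lost, and that part was not measured. Without the replicate block the count was 9, without dTAG-13 replicate 1 it was 17, and with limma on the ratios 0. Pdzd4 differed, with means of 0.579 and 0.564 in the SPOC line. Msn did not, with 0.437 and 0.542 there, an increase of 0.105 beside 0.124 with intact SPEN (adjusted p of the difference = 0.426).

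On autosomes the allelic ratio did not follow. Of 11798 autosomal genes, 0 passed the edgeR test, and 529 had an unadjusted p under 0.05. Without dTAG-13 replicate 1 the count was 1.

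Total expression, from all fragments of a gene whichever allele they came from, changed little. Of 15366 genes tested, 0 passed by edgeR and 0 by DESeq2, with 447 (2.91%) and 129 at an unadjusted p under 0.05. Fitted on the 4 day 1 libraries alone, edgeR called 28 of 14928 genes tested, 24 higher and the others, Vcan, Npr3, Efna5 and Txnip, lower. Of the 28, 7 belong to the 246 X genes and all 7 were higher, among them Hdac8 (log2 0.46, SE 0.07), Nhsl2 (0.53, SE 0.09) and Cd99l2 (0.60, SE 0.09). The X genes with a ratio moved together by their median, 0.18 on the log2 scale, against -0.001 over all genes, and in untreated cells they had fallen by 0.51 from day 0. Both dTAG-13 libraries lay above both untreated ones for 81 of the 246 (32.9%) and below for 3, against 8.56% and 11.3% of all genes. At an unadjusted p under 0.05, 56 were higher and 0 lower. Clcn5, a chloride-proton exchanger, had 124 and 114 CPM untreated and 169 and 151 CPM with dTAG-13, having stood at 189 and 194 CPM untreated on day 0. Phka1, a phosphorylase kinase subunit, had 70.5 and 75.1 CPM against 93.0 and 112 CPM. In both genes the treated libraries lay above the untreated ones.

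Beyond Xist, where the deposited table gives no ratio, the X behaved alike in total expression. Fragments there were assigned almost wholly to Cast in each mESC library, with a Dom share of 0.656% to 1.55% over 160 genes, so alleles could not be compared. The highest Dom share was that of dTAG-13 day 1 replicate 1, and the other day 1 libraries had 0.656% to 0.798%. The study names a recombination event in the line from which this one was derived as a reason why some genes lack allelic values. A Cast fragment beyond Xist therefore does not tell which X it came from, and the changes there cannot be placed on either X. The 224 genes tested had a median log2 change of 0.19 with dTAG-13 on day 1 and of -0.05 on day 0, after a fall of 0.54 in untreated cells from day 0 to day 1. Of them, 63 (28.1%) had both dTAG-13 libraries above both untreated ones and 7 had both below. Pcdh19, a protocadherin gene, had 24.0 and 16.1 CPM untreated and 38.6 and 24.1 CPM with dTAG-13.

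Gene lists described the state of the cells. None of 19 lists, the X-linked ones included, had a gene past the adjusted test over the 8 mESC libraries. In the fit on the 4 day 1 libraries alone, the listed X genes Hdac8 and Shroom4 passed. The medians of naive pluripotency genes (-0.02, 13 tested), core pluripotency genes (-0.02, 5 tested) and germline genes (-0.01, 18 tested) were near the -0.001 of all genes, as were those of PRC1 subunits (0.03, 27 tested), PRC2 subunits (0.04, 11 tested) and Xist cofactors including SPEN (0.06, 17 tested). Pou5f1, which encodes OCT4, had 51.6 and 55.6 CPM untreated and 40.3 and 44.5 CPM with dTAG-13 (log2 -0.32, SE 0.11, unadjusted p = 0.0196, edgeR). Jarid2, an accessory subunit of PRC2, had 1992 and 1441 CPM untreated and 2274 and 2617 CPM with dTAG-13 (unadjusted p = 0.0347, edgeR), and 1589 to 2613 CPM over the 4 day 0 libraries. Ftx, a non-coding gene beside Xist and so on the X, had 108 and 145 CPM untreated and 142 and 192 CPM treated (unadjusted p = 0.00478, edgeR). It passed on the 4 day 1 libraries alone (adjusted p = 0.0321, edgeR). On day 0 it had 151 and 215 CPM untreated and 170 and 280 CPM treated (unadjusted p = 0.0268, edgeR).

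Polycomb target lists showed little RNA in either treatment. Of 39 Hox genes 3 were expressed enough to test, and of 36 bivalent lineage transcription factor genes 13 were, with median log2 changes of -0.16 and -0.004. Pax3 had 0.173 and 0.0483 CPM untreated and 1.85 and 0.187 CPM with dTAG-13, so its higher group rests on replicate 1, the library with Cast Xist RNA. Gata4, an endoderm factor, had 3.01 and 3.38 CPM against 6.11 and 4.36 CPM, and the 11 primitive endoderm markers tested had a median of 0.32, after 0.20 on day 0. The summed level of that list was 624 and 420 CPM untreated and 859 and 388 CPM with dTAG-13, higher in replicate 1 only. In 1 marker both treated libraries lay above both untreated ones, and in 1 both lay below. Markers of 2-cell-like cells had a median of -0.42 over 12 genes, with Usp17lc at 1.73 and 1.35 CPM untreated and 0.618 and 0.748 CPM treated. Formative and primed markers (0.18, 7 tested), neural precursor markers (-0.17, 6 tested), ERK output genes (-0.06, 10 tested), ATF4 stress genes (0.06, 11 tested) and p53 targets (-0.14, 10 tested) completed the lists off the X, with fibroblast markers at 0.61. The 3 X-linked lists had medians of 0.16 for chromatin and transcription regulators (38 tested), 0.15 for pluripotency and MAPK regulators (13 tested) and 0.16 for escape genes (13 tested).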

How the data were processed

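ChrRNA-seq libraries of the PCGF35 line were compared by the groups in their labels. Per the study's methods and the submitters' processing notes, the authors removed ribosomal reads with Bowtie2 2.3.2, aligned the rest with STAR 2.4.2a to mm10 with strain differences masked, split fragments by allele with SNPsplit and counted them per gene by strand with featureCounts, introns included. The deposited counts (all, Cast and Dom fragments of 22556 genes) are raw and not pooled. The deposited allelic ratios are fractions, Dom over Dom plus Cast, for 246 X genes that the authors had filtered. Recomputed from the counts they differed by at most 5.55e-16. Starts are printed 1-based, 1 more than deposited. No column of a library without a label was found.

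Allele counts were tested with edgeR 4.0.16 (R 4.3.3), with a term per library, an allele by group term and the replicate number within the day as a block, over the 8 mESC libraries. p-values were Benjamini-Hochberg adjusted over all genes of a fit at 0.05. Replicate numbers pair cultures that the study describes as grown in parallel. Differences between replicates correlated across genes between the treatments, with r = 0.458 on day 0 and 0.749 on day 1 for expression, and 0.271 and 0.0162 for allele log ratios. Replicates differed by more than counting error (chi-square per degree of freedom 34.8 to 74.6). Total counts, and Dom and Cast counts, were fitted with TMM after filterByExpr. Autosomal ratios required at least 10 allelic fragments in each library and a day 0 ratio of 0.1 to 0.9. Total fragments per library set the precision, and genes with few allelic fragments have wide errors. limma 3.58.1, DESeq2 1.42.0, other filters, samples and scalings were alternatives. Scripts were tested on simulated data.

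Named genes were the 12 largest rises past the threshold with at least 100 fragments and no overlap, the 6 smallest changes among genes below day 0 in both treatments, up to 6 falls, the 4 lowest and 4 highest untreated ratios, the engineered genes, and up to 10 changed genes per direction of expression, which gave none. Some items are not reported here. In each list, genes with the smallest p were added. Genes outside this rule that are named were chosen after their values were seen. The comparison, the genes and the lists were chosen with earlier results of these data known. Speed, chromatin and SPOC classes come from the study's gene table.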

Additional observations from a re-analysis of the deposited data

Results flagged for a closer look

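Differences between settings were tested as interactions (edgeR, adjusted p under 0.05). The dTAG-13 effect on the allelic ratio differed between day 1 and day 0 for 55 genes, between mESC day 1 and NPC day 6 for 147, and between the lines with intact and mutated SPEN for 28.

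Among the named genes, the effect differed from day 0 for Pdzd4 (adjusted p = 3.12e-06), Tex11 (0.000845), Rbmx (0.000856), Aff2 (0.00141), 2610018G03Rik (0.00238), Stard8 (0.00395), Msn (0.00576), Apoo (0.0100), Stag2 (0.0389) and Nr0b1 (0.0389), all by edgeR.

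The effect differed from that on NPC day 6 for Idh3g and Kdm6a (adjusted p = 6.58e-11 each), Rps4x (2.78e-10), Bcor (4.49e-06), Utp14a (6.47e-05), Msn (9.85e-05), Stag2 (0.00180), Tbc1d25 (0.00399), Rbmx (0.00576), Gm6938 (0.00823), Upf3b (0.0119), Aff2 (0.0226), Dlg3 (0.0320), Elf4 (0.0392) and Cd99l2 (0.0468), by edgeR. It differed from that in the SPOC line for Pdzd4 (adjusted p = 4.66e-07), Rbmx (0.00709), Tex11 (0.0174), Elf4 (0.0391) and Apoo (0.0399), by edgeR. The genes named here and for the test against day 0 were chosen by their day 1 ratios, which also enter these tests.

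Xist fragments of the Cast X, which no comparison used, made up 20.6% of allelic Xist fragments in dTAG-13 day 1 replicate 1 and 37.6% in dTAG-13 day 0 replicate 1. The untreated libraries had 0.117% and 0.0422% on day 1, and 5.11% and 0% on day 0.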

How the results depend on the processing

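The 84 genes with a changed ratio on day 1 became 39 to 45 when 1 pair, or dTAG-13 replicate 1 alone, was left out, 38 with all 58 libraries in the fit, 50 when fitted and adjusted with the autosomal genes, 49 with DESeq2 (155 genes tested), and 0 with limma on the ratios. Without the replicate block the count was 74. The 55 genes that differed between day 1 and day 0 became 36 without the replicate block, 27 to 29 without 1 pair or dTAG-13 replicate 1, 2 with all 58 libraries, 31 with the autosomal genes, and 0 with limma (49 at an unadjusted p under 0.05). The 147 genes that differed from NPC day 6 became 6 with limma and 120 without dTAG-13 replicate 1, and the 28 that differed from the SPOC line became 9 without the replicate block, 17 without dTAG-13 replicate 1 and 0 with limma (31 at an unadjusted p under 0.05). Requiring at least 200 fragments left 104 genes, of which 100 were below day 0 untreated and 94 with dTAG-13, fewer because fewer were tested. The autosomal count was 1 without dTAG-13 replicate 1, and total expression gave 28 genes in the 4 day 1 libraries alone. Other than for the shorter gene list, the cause of these moves was not tested. The difference of median ratios stayed between 0.0591 (pooled fragments) and 0.0836. The log2 difference of Xist RNA ran from 0.02 to 0.31 and passed no test. No result reversed, and 73 of the other values for whole comparisons kept their call, or for counts and medians stayed near the reported ones. For single named genes 172 values kept their call and 53 lost it. With 2 cultures per group of 1 line, the exact test of medians could not pass 0.05, and genes under 50 allelic fragments could rarely be called.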
